A study of Homo sapiens with 8 samples.

Results

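The 2 hairpins directed at PTK7, named shPTK7-1 and shPTK7-2 in the labels, were set directly against each other, paired by cell line. The members were the 4 arrays of cells that received either of these hairpins, of 8 arrays in the study, chosen by their titles. The lines were NCI-H1299 and NCI-H2009 (H1299 and H2009), human lung adenocarcinoma lines grown in RPMI with serum. Each line was infected for 2 days with lentivirus that carried a single short hairpin RNA, selected in puromycin for the next 2 days, and harvested for total RNA on day 4 after infection. The groups were shPTK7-1, shPTK7-2 and the controls shGFP and shLUC, which target the foreign genes GFP and luciferase, with 1 array per hairpin and line and so 2 arrays per hairpin. All 8 arrays therefore followed the same schedule, and each is a selected pool of infected cells rather than a clone. The control arrays served to show which of the PTK7 hairpins departed from control, and to estimate the spread. Nothing in the labels places the arrays in separate cultures beyond line and hairpin. The spread behind each p-value is how far the differences between hairpins disagreed between the lines. It also holds differences between single arrays, which may be technical.

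PTK7 is a receptor tyrosine kinase-like membrane protein without catalytic activity that acts in Wnt and planar cell polarity signalling. A short hairpin RNA is cut by DICER1 into a small RNA that an Argonaute protein uses to find complementary transcripts, and it can also lower transcripts that match only its seed, the bases near its 5′ end. Hairpins against the same gene share the target but differ in sequence, so a direct comparison asks which transcripts differ between cells in which the same gene was targeted. Sequences of the hairpins were not used here.

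The array values were log2 expression values, with array medians between 5.31 and 5.41, and 18404 genes were read by the brightest probe set of each gene. Across genes, the shPTK7-1 and shPTK7-2 arrays of a line correlated at Pearson r = 0.981 in H1299 and 0.985 in H2009, and the shGFP and shLUC arrays at 0.992 and 0.997. Among epithelial markers, EPCAM, a surface protein of epithelial cells, read 11.2 to 11.3 in H2009 but 3.32 to 3.58 in H1299, near the bottom of the scale. CDH1, which encodes E-cadherin, was likewise 11.2 to 11.4 in H2009 and 3.92 to 4.19 in H1299, while the keratin KRT18 lay between 10.6 and 11.6 in all 8 arrays. The keratin KRT19 read 11.25 to 11.39 in H2009 but 5.27 to 5.66 in H1299, and KRT8 read 11.48 to 11.65 and 8.68 to 10.38. The mesenchymal markers VIM and CDH2 were higher in H1299, at 11.33 to 11.57 and 9.08 to 9.51. In H2009 they read 8.60 to 9.61 and 5.83 to 7.04. The mesenchymal marker FN1 was instead lower in H1299, at 6.30 to 6.97 against 9.83 to 9.98. Markers of other cell types were low: the mean over 12 leukocyte markers was 3.85 to 4.06, over 12 fibroblast markers 4.37 to 4.47, and over 12 endothelial markers 3.96 to 4.44, and none of these markers differed between the PTK7 hairpins. Single members were higher: the endothelial marker ENG read 8.52 to 9.20 in H2009 and 5.45 to 5.82 in H1299, and the fibroblast marker ACTA2 read 5.68 to 6.57 in H1299.

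PTK7 itself did not differ between the hairpins beyond error. In H1299 its log2 value was 5.63 with shPTK7-1 and 5.53 with shPTK7-2, against 5.73 with shGFP and 6.03 with shLUC. In H2009 it was 5.63 with shPTK7-1 and 5.94 with shPTK7-2, against 6.64 with shGFP and 6.86 with shLUC. All 4 PTK7 arrays lay below both control arrays of their line, and the order of the PTK7 hairpins was opposite in the lines. The difference, shPTK7-1 minus shPTK7-2, was -0.10 ± 0.22 on the log2 scale (standard error of the fit, as for all errors below; limma adjusted p = 0.911). Against control, the log2 difference of PTK7 was -0.68 for shPTK7-1 and -0.58 for shPTK7-2, and neither passed (limma adjusted p over all genes = 0.165 and 0.176).

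Many genes did differ between the hairpins, in both directions and about equally often. At a limma adjusted p under 0.05, 686 of 18404 genes differed (3.73%): 357 were higher with shPTK7-1 (1.94%) and 329 were higher with shPTK7-2 (1.79%). All 686 had the same sign in both lines. Their median size was 0.94 on the log2 scale, or 1.92-fold, with a range of 0.60 to 2.42, and 287 were at least 2-fold. The control hairpins gave 0 calls in the same fit (0.0%). In limma their lowest adjusted p was 0.598 and 672 genes had an unadjusted p under 0.05, whereas 3364 genes had an unadjusted p under 0.05 between the PTK7 hairpins.

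The count depended on single arrays. Without the shPTK7-1 array of H1299 it was 0, 2212 genes then having an unadjusted p under 0.05 and the lowest limma adjusted p being 0.0623. It was 92 without the shPTK7-1 array of H2009, 97 without the shPTK7-2 array of H1299 and 943 without that of H2009. It was 301 without either shGFP array and 381 without either shLUC array. The spread estimated from the 4 PTK7 arrays alone gave 433 genes, 392 of them among the 686. None of the 686 changed sign in any of these fits, but this was largely fixed in advance. Leaving out a control array does not alter the difference between the PTK7 hairpins, and all 686 had the same sign in both lines. Without the pairing by line the count was 0, with a lowest limma adjusted p of 0.161.

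A count that used no test gave the same order. Genes that differed at least 2-fold in the same direction in both lines numbered 167 for the PTK7 hairpins (0.907%) and 4 for the control hairpins (0.0217%). Of the 780 genes that were at least 2-fold apart between the PTK7 hairpins in H1299, 88.1% had the same sign in H2009 and 21.4% were also at least 2-fold apart there. Of the 456 such genes in H2009, 81.6% had the same sign in H1299 and 36.6% were also at least 2-fold apart. Between the control hairpins, 172 genes were at least 2-fold apart in H1299, of which 76.7% had the same sign in H2009. There were 36 such genes in H2009, of which 66.7% had the same sign in H1299.

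**Figure D1:**
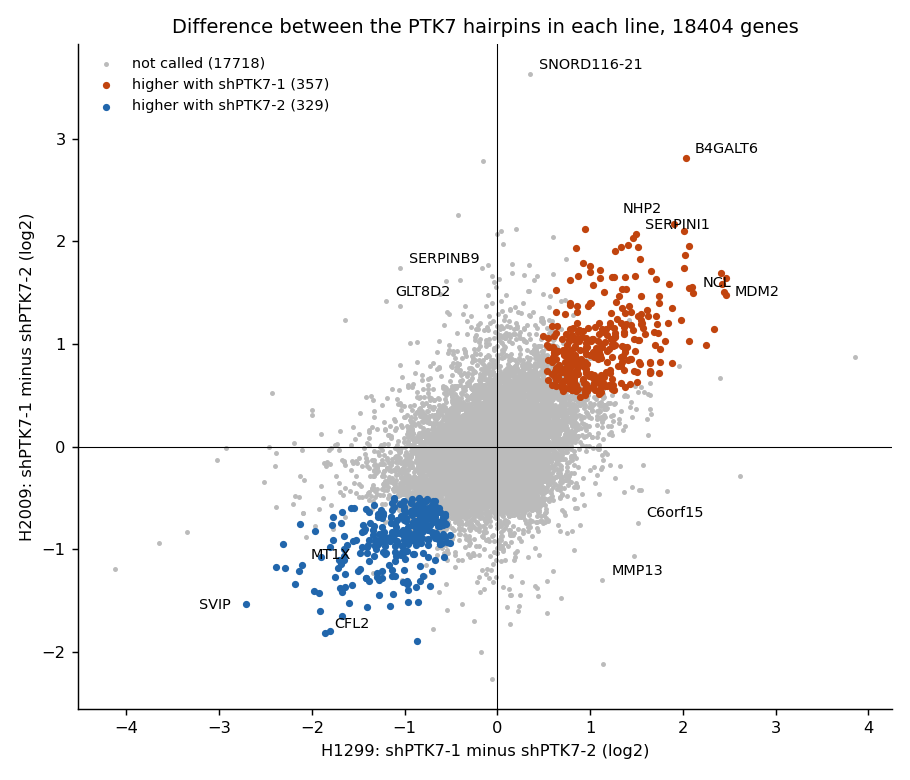
Each point is one of 18404 genes, with the log2 difference shPTK7-1 minus shPTK7-2 in H1299 on the x axis and in H2009 on the y axis; colours mark the 357 genes called higher with shPTK7-1 and the 329 called higher with shPTK7-2 (limma adjusted p under 0.05). The called genes lie in the upper right and lower left corners, and the labelled grey points MMP13, C6orf15, SERPINB9 and GLT8D2 lie where the lines had opposite signs.

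The genes called were mostly bright. Split into equal bins of 4601 genes by mean log2 value, the dimmest bin (under 4.39) held 3 genes that differed (0.0652%), the next (up to 6.32) 58 (1.26%), the next (up to 8.12) 276 (6.0%) and the brightest 349 (7.59%). On this scale differences of dim genes are compressed, so the dim bins say little about the transcripts they read.

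Set beside the controls, 142 of the 686 passed with shPTK7-1 only, of which 123 were below control, and 222 passed with shPTK7-2 only, of which 199 were below control. Against the mean of shGFP and shLUC, shPTK7-1 had 180 genes lower (0.978%) and 46 higher (0.25%), and shPTK7-2 had 323 lower (1.76%) and 72 higher (0.391%), each at a limma adjusted p under 0.05. These counts hung on single arrays. The 180 genes lower with shPTK7-1 became 0 and 11 without the shPTK7-1 array of H1299 and of H2009, 269 without either shPTK7-2 array, 18 and 10 without shGFP in H1299 and in H2009, and 47 and 28 without shLUC. The 323 lower with shPTK7-2 became 84 and 305 without the shPTK7-2 array of H1299 and of H2009, 182 without either shPTK7-1 array, 17 and 68 without shGFP and 87 and 93 without shLUC. The comparisons share their control arrays, so their values are given side by side and only as a description.

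Among the 357 genes higher with shPTK7-1, the median log2 difference from control was 0.20 with shPTK7-1 and -0.76 with shPTK7-2. In 199 of them only shPTK7-2 passed against control, always lower, in 19 only shPTK7-1 passed, always higher, in 1 both passed in opposite directions, and in 138 neither passed. The number with only shPTK7-2 past control, 222 over both directions, became 0 and 36 without the shPTK7-1 array of H1299 and of H2009, 45 and 381 without those of shPTK7-2, 14 and 51 without shGFP and 69 and 74 without shLUC. The shPTK7-2 arrays lay below both control arrays in both lines for 337 of the 357, as they did for 15.2% of all genes, and the shPTK7-1 arrays lay above both for 185, as they did for 18.0% of all genes.

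Among the 329 genes higher with shPTK7-2, the median log2 difference from control was -0.64 with shPTK7-1 and 0.27 with shPTK7-2. In 123 of them only shPTK7-1 passed, always lower, in 23 only shPTK7-2 passed, always higher, in 1 both passed in opposite directions, and in 182 neither passed. The number with only shPTK7-1 past control, 142 over both directions, became 0 and 12 without the shPTK7-1 array of H1299 and of H2009, 35 and 161 without those of shPTK7-2, 16 and 10 without shGFP and 39 and 24 without shLUC. The shPTK7-1 arrays lay below both control arrays in both lines for 301 of the 329, against 17.4% of all genes, and the shPTK7-2 arrays lay above both for 198, against 18.1%. The gene had to differ between the hairpins to be counted, so a departure of at least one hairpin was built into these counts. In 0 of the 686 did both hairpins pass against control in the same direction. This too was largely built in, since a gene moved alike by both hairpins is unlikely to differ between them. Genes that did pass with both, such as the desmosomal cadherin DSC2 and the acyltransferase MBOAT1, had log2 differences between the hairpins of 0.22 and 0.15 and did not pass (limma adjusted p = 0.506 and 0.72).

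**Figure D2:**
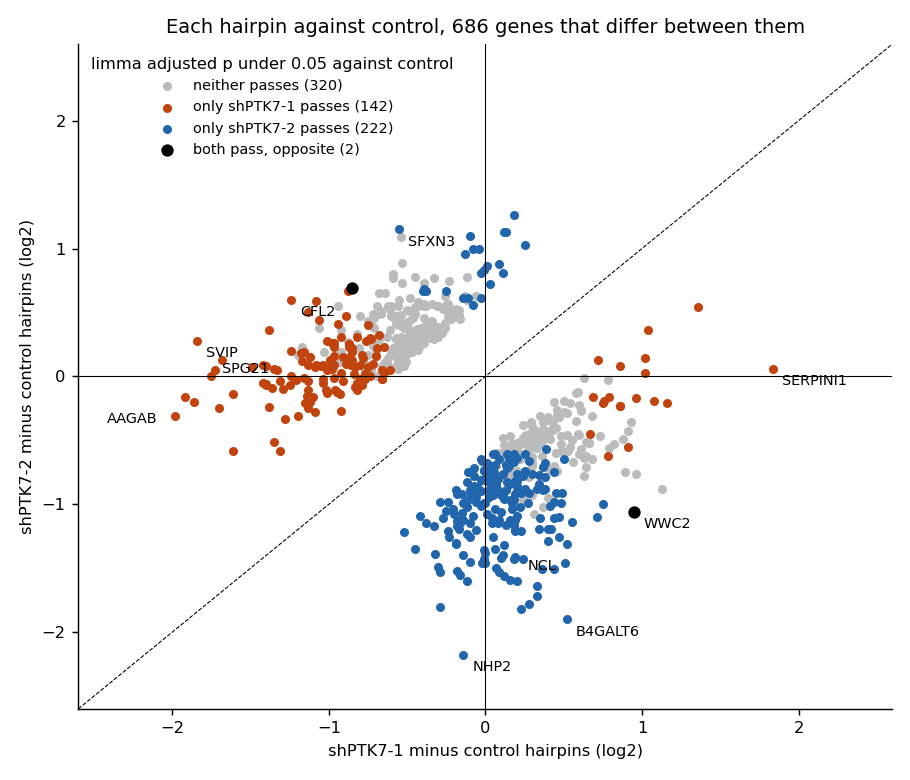
Each point is one of the 686 genes that differed between the PTK7 hairpins, with its log2 difference from the mean of the control hairpins under shPTK7-1 on the x axis and under shPTK7-2 on the y axis; the dashed line marks equal values and colours mark which hairpin passed against control. Of the points, 222 passed with shPTK7-2 only and 142 with shPTK7-1 only, of which 199 and 123 lie below control with that hairpin.

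The largest difference was in B4GALT6, which encodes a galactosyltransferase that makes lactosylceramide. In H1299 its log2 value was 9.56 with shPTK7-1 and 7.53 with shPTK7-2, with the controls at 9.27 and 9.20. In H2009 it was 7.58 and 4.77, with the controls at 6.77 and 6.96. Both shPTK7-2 arrays were far below every other array of their line, and the difference was 2.42 ± 0.19 on the log2 scale, or 5.35-fold (limma adjusted p = 0.00628). SERPINH1, a chaperone of collagen folding, was higher with shPTK7-1 by 2.06 ± 0.20 and PPIL1, a cyclophilin of the spliceosome, by 2.05 ± 0.21. Their differences from control were 0.28 and 0.23 with shPTK7-1, which did not pass, and -1.78 and -1.82 with shPTK7-2.

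MDM2, the ubiquitin ligase that restrains p53, showed the same arrangement in H1299, which lacks p53, and in H2009. Its log2 value in H1299 was 10.03 with shPTK7-1 and 7.57 with shPTK7-2, against 9.70 and 9.72 in the controls. In H2009 it was 9.37 and 7.73, against 8.88 and 9.15. The shPTK7-2 arrays were the lowest of each line and the shPTK7-1 arrays the highest, and the difference of 2.05 ± 0.23 passed (limma adjusted p = 0.00821). Among 23 measured p53 targets 9 lay above 0 and 14 below, and MDM2 was the only one to pass as higher with shPTK7-1. DDB2, a DNA damage-binding gene, passed on the opposite side at -0.78 (log2), and no further target passed. The cell cycle inhibitor CDKN1A, a defining p53 target, differed by -0.11 (limma adjusted p = 0.881).

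Of the other genes among the 15 largest, CMPK1, a nucleotide kinase, was higher with shPTK7-1 by 1.97 on the log2 scale, as was ELOA, the elongin A transcription elongation factor. HABP4, an RNA-binding protein, differed by 1.95, LIPA, the lysosomal acid lipase, by 1.87, JADE3, a scaffold of histone acetyltransferase complexes, by 1.83, and TRAK2, an adaptor of mitochondrial transport, by 1.81. In each of these 6 only shPTK7-2 passed against control, and it was lower. In all, 12 of the 15 had that arrangement.

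The other 3 were WWC2, SERPINI1 and UBD. WWC2, a relative of the Hippo pathway scaffold KIBRA, departed from control with both hairpins, in opposite directions. It read 8.78 and 6.72 with shPTK7-1 and shPTK7-2 in H1299 and 8.89 and 6.93 in H2009, with the 4 controls between 7.69 and 8.06. The log2 differences from control were 0.95 with shPTK7-1 and -1.06 with shPTK7-2 (limma adjusted p = 0.0145 and 0.00837). MPP1, a membrane scaffold protein, was the only other gene among the 686 with both hairpins past the threshold on opposite sides, at -0.85 with shPTK7-1 and 0.69 with shPTK7-2.

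SERPINI1, the serine protease inhibitor neuroserpin, was the gene of the 15 that rose with shPTK7-1 rather than falling with shPTK7-2. Its log2 values were 6.56 and 6.97 with shPTK7-1 in H1299 and H2009, against 5.08 and 4.90 with shPTK7-2 and 4.62 to 5.11 in the controls. The shPTK7-1 arrays were apart from all others, and the difference from control was 1.84 with shPTK7-1 and 0.06 with shPTK7-2. UBD, a ubiquitin-like modifier also called FAT10, was dim (2.77 to 5.43), and its probe sets disagreed. The brighter gave a log2 difference of 2.01 and the other 0.00. Of 16 called genes with several probe sets, 14 had all of them on the same side, and the exceptions were UBD and the Polycomb gene RING1.

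**Figure D3:**
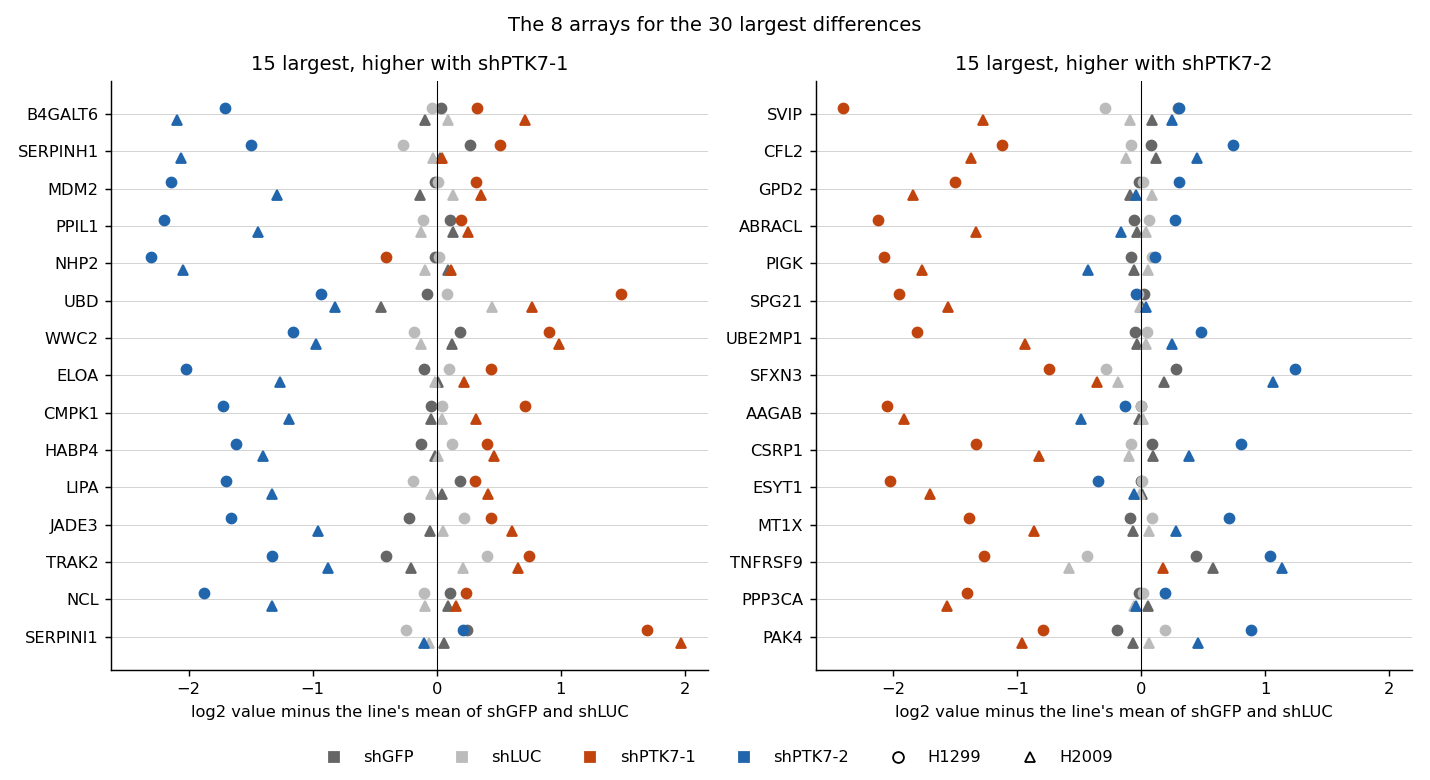
Each row is a gene among the 15 largest differences in each direction, and the x axis gives the log2 value of each of the 8 arrays minus the mean of shGFP and shLUC in the same line; colours mark the hairpin, circles H1299 and triangles H2009. In 12 genes of the left panel only shPTK7-2 passed against control and in 13 genes of the right panel only shPTK7-1 did, and the passing hairpin is to the left of 0.

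In the opposite direction the largest difference was in SVIP, an inhibitor of degradation of misfolded proteins from the endoplasmic reticulum. Its log2 value in H1299 was 4.93 with shPTK7-1 and 7.64 with shPTK7-2, against 7.63 and 7.04 in the controls. In H2009 it was 8.14 and 9.67, against 9.51 and 9.33. The shPTK7-1 arrays were the lowest of each line, and the difference was -2.12 ± 0.29 (limma adjusted p = 0.0133). SPG21, which encodes maspardin, was even across the other 6 arrays, at 10.2 to 10.3, and read 8.36 and 8.64 with shPTK7-1, a difference of -1.75 ± 0.15. ESYT1, a tether between the endoplasmic reticulum and the plasma membrane, read 7.70 and 7.47 with shPTK7-1 against 9.11 to 9.73 elsewhere, a difference of -1.66 ± 0.15.

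GPD2, the mitochondrial glycerol-3-phosphate dehydrogenase, was lower with shPTK7-1 than with shPTK7-2 with a difference of -1.81 in H1299 and -1.8 in H2009. AAGAB, a binding partner of clathrin adaptors, differed by -1.68 and was the gene of these 15 farthest below control with shPTK7-1, at -1.98. PPP3CA, the catalytic subunit of calcineurin, differed by -1.56, and ABRACL, a small protein tied to actin dynamics, by -1.78. Of the 15, 13 passed against control with shPTK7-1 only, and all 13 were lower.

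SFXN3, a mitochondrial serine carrier, was instead higher than control with shPTK7-2. It read 9.38 and 8.98 with shPTK7-2, against 7.40 and 7.56 with shPTK7-1 and 7.73 to 8.42 in the controls. Its difference from control was 1.15 with shPTK7-2 and -0.55 with shPTK7-1, and only the first passed (limma adjusted p = 0.0135 and 0.141). TNFRSF9, a costimulatory receptor also called 4-1BB, passed between the hairpins with a wide error, at -1.63 ± 0.34 (limma adjusted p = 0.0466), and did not pass with quantile or cyclic loess normalization (limma adjusted p = 0.0642 and 0.0737). Its control arrays were themselves apart, at 7.13 and 6.25 in H1299 and 7.61 and 6.45 in H2009.

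Gene lists of signalling and cell biology were read next, that of the targeted gene first. Of 34 gene lists with 812 genes, 747 genes were measured and 40 of them differed (5.35%, against 3.73% of all genes), and 20 lists had at least 1 member that passed. The 65 others were not analysed here. The lists were not matched for brightness, and in the brighter bins above 6.0% and 7.59% of genes differed. The 40 became 0 and 11 without the shPTK7-1 array of H1299 and of H2009, 10 and 61 without those of shPTK7-2, 23 without either shGFP array and 26 without either shLUC array. Over all genes the median difference was -0.02, with 8368 genes above 0 and 10036 below. In these bulk samples, fewer cells of a type and less RNA per cell cannot be told apart.

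Of 25 measured genes of the PTK7 and planar cell polarity list, 1 was higher with each hairpin (8.0% in all), and the list median was 0.02. FZD3, a Wnt receptor of the planar cell polarity pathway, read 7.79 and 6.46 with shPTK7-1 and shPTK7-2 in H1299 and 7.37 and 5.83 in H2009. Its controls were 7.56 and 7.77 in H1299 and 7.02 and 7.06 in H2009, so that only the shPTK7-2 arrays stood below them. The difference was 1.44 ± 0.13 (limma adjusted p = 0.00628). ROCK2, a kinase downstream of RHOA that drives actomyosin contraction, read 8.08 and 7.89 with shPTK7-1 and 8.85 to 9.48 in the other 6 arrays, a difference of -1.18 ± 0.15. None of 16 canonical Wnt targets passed. The member nearest to passing was cyclin D1 (CCND1), at -0.95 ± 0.23 (limma adjusted p = 0.0723), with 10.99 and 9.22 with shPTK7-2 against 10.42 and 7.88 with shPTK7-1.

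Hippo pathway genes differed member by member. Of 22 measured YAP and TAZ targets and regulators, AXL was higher with shPTK7-1 and WWC1 higher with shPTK7-2, and the median was 0.13. The share that passed was 9.09%, against 3.73% of all genes and 6.0% and 7.59% of the brighter bins. AXL, a receptor tyrosine kinase, read 11.16 and 9.68 with shPTK7-1 and shPTK7-2 in H1299 and 9.75 and 8.10 in H2009, with controls of 11.10 and 11.23, and 9.70 and 9.53. The shPTK7-1 arrays were level with control and the shPTK7-2 arrays differed from it by -1.5. WWC1, which encodes KIBRA, was higher than control with shPTK7-2 by 0.96 and differed between the hairpins by -1.10 ± 0.16. Its relatives WWC2 and WWC3 lay on the opposite side, WWC3 at 1.75 ± 0.16, and were read together only after their values were seen. ANKRD1, which YAP and TAZ induce, was above control by 2.49 with shPTK7-1, which passed, and by 2.01 with shPTK7-2, which did not (limma adjusted p = 0.037 and 0.0535). It differed between the hairpins by 0.47 ± 0.47 and did not pass.

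Other receptor tyrosine kinases were also split. Of 31 measured, AXL and IGF1R, the insulin-like growth factor receptor, were higher with shPTK7-1, and MET, the receptor of hepatocyte growth factor, was higher with shPTK7-2. These made up 9.68% of the list, against 3.73% of all genes and 6.0% and 7.59% of the brighter bins. IGF1R read 8.76 and 7.75 in H1299 and 9.30 and 8.61 in H2009 with shPTK7-1 and shPTK7-2, and both of its probe sets were on the same side, at 0.85 and 1.36 (limma adjusted p = 0.0235, and 0.053 from the 4 PTK7 arrays alone). MET read 8.04 and 9.70 in H1299 and 10.11 and 10.98 in H2009, a difference of -1.27 ± 0.20 (limma adjusted p = 0.0208), with neither hairpin past the threshold against control.

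Regulators of entry into the cell cycle had 4 of 20 measured members past the threshold, 2 of them higher with each hairpin. For comparison, 3.73% of all genes and 6.0% and 7.59% of the brighter bins differed. CCNE2 (cyclin E2) and E2F3, a transcription factor of the entry into S phase, were higher with shPTK7-1 by 1.38 ± 0.29 and 0.94 ± 0.20 (limma adjusted p = 0.0483 and 0.0493), and with cyclic loess normalization neither passed (limma adjusted p = 0.0575 and 0.0549). CCND3 (cyclin D3) and RBL2, a relative of the retinoblastoma protein, were higher with shPTK7-2, with differences of -1.02 and -0.84. CCND3 read 8.92 and 7.95 with shPTK7-1 and 9.93 and 8.97 with shPTK7-2, and the difference was the same in the lines, -1.01 and -1.03. RBL2 was below control with both hairpins, by -1.35 with shPTK7-1, which passed, and by -0.51 with shPTK7-2, which did not. Of 29 mitosis genes only TOP2A, the topoisomerase of chromosome segregation, passed (0.71 ± 0.15; limma adjusted p = 0.045, and 0.08 from the 4 PTK7 arrays alone), and none of the DNA replication genes did.

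Proteins of small nucleolar ribonucleoproteins and the nucleolus had 4 of 23 measured members past the threshold. That is 17.4%, against 3.73% of all genes and 7.59% of the brightest bin. NHP2, a core subunit of the H/ACA particles that guide pseudouridylation, read 9.45 and 7.55 with shPTK7-1 and shPTK7-2 in H1299 and 8.82 and 6.66 in H2009. Its controls were 9.84 and 9.87, and 8.80 and 8.61. Both shPTK7-2 arrays stood apart below, the difference was 2.03 ± 0.17, and the second probe set gave 1.83. NCL, which encodes nucleolin, read 10.77 and 8.66 in H1299 and 10.88 and 9.39 in H2009, with all 4 controls between 10.43 and 10.81, a difference of 1.8 ± 0.18. NOLC1, a chaperone of these particles, differed by 0.73 ± 0.13. SHQ1, an assembly factor of H/ACA particles, lay on the opposite side, at -0.88 ± 0.14. The other core subunits of H/ACA particles, DKC1, NOP10 and GAR1, differed by -0.15, -0.24 and -0.03 and did not pass.

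Small nucleolar RNAs were a group read after its values were seen. Of 61 H/ACA snoRNAs, which associate with NHP2, 12 (19.7%, against 3.73% of all genes) were higher with shPTK7-1 and 0 with shPTK7-2 in limma, 52 lay above 0 and the median was 0.41. The median was 0.52 in H1299 and 0.30 in H2009. Against control it was 0.24 with shPTK7-1 and -0.18 with shPTK7-2. Only SNORA14B passed against control, higher with shPTK7-1 at 0.75 (limma adjusted p = 0.0351), and 0 of the 61 passed as lower with shPTK7-2. Of 115 C/D snoRNAs, which guide methylation and do not carry NHP2, 4 were higher with shPTK7-1 and 0 with shPTK7-2 in limma (3.48%, near the share of all genes), 98 lay above 0 and the median was 0.24. Of 16 Cajal body RNAs 1 passed, SCARNA10 at 0.72, and the median was 0.44. SNORA23, SNORA3B, SNORA41 and SNORA71C did not pass with quantile or cyclic loess normalization, nor SNORA14A and SNORD82 with cyclic loess normalization, nor SCARNA10 and SNORD14E with a trended prior. From the 4 PTK7 arrays alone, most of the H/ACA calls were lost. These were SNORA14A, SNORA23, SNORA3B, SNORA41, SNORA49, SNORA6, SNORA62 and SNORA71C (limma adjusted p between 0.0512 and 0.0688). SCARNA10, SNORD14E and SNORD82 were lost there as well (limma adjusted p between 0.0733 and 0.0952). The calls of the H/ACA snoRNAs were 0 without either shPTK7-1 array or the shPTK7-2 array of H1299, 11 without the shPTK7-2 array of H2009 and 4 without any one control array, and their median then ran from 0.31 to 0.48.

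SNORA22 had the largest difference among the H/ACA snoRNAs called. It read 9.93 and 8.42 with shPTK7-1 and shPTK7-2 in H1299 and 9.15 and 7.89 in H2009, with controls of 9.69 and 10.03, and 8.43 and 8.53. The difference was 1.39 ± 0.23 (limma adjusted p = 0.0234). SNORA71A read 10.27 and 9.0 in H1299 and 10.19 and 9.12 in H2009, with controls between 9.38 and 9.80, so that shPTK7-1 lay above and shPTK7-2 below all controls. SNORD45C, a C/D snoRNA, read 7.36 and 6.20 in H1299 and 7.10 and 6.08 in H2009, a difference of 1.09 ± 0.14, and only shPTK7-1 passed against control.

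Most snoRNAs lie in introns of other genes, so the host genes give a further reading. SNORD82 lies in an intron of NCL and differed by 0.81 ± 0.16, with the same sign as its host. Their departures from control were unlike. NCL differed from control by 0.20 with shPTK7-1 and by -1.60 with shPTK7-2, and only the latter passed. SNORD82 differed by 0.52 and -0.29, and neither passed. SNORA41 and SNORD51 lie in introns of EEF1B2, a translation elongation factor. They were higher with shPTK7-1 by 0.84 and 1.17, while EEF1B2 itself differed by -0.36 and did not pass (limma adjusted p = 0.237). EEF1B2 was 7.61 and 7.81 with shPTK7-1 and shPTK7-2 in H1299 and 7.50 and 8.01 in H2009. IPO7, RPL27A and SNHG17, the hosts of SNORA23, SNORA3B and SNORA71A, differed by 0.22, 0.26 and 0.10 and did not pass. These hosts were chosen after the values were seen.

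MicroRNA genes were mostly dim, with a mean log2 value of 3.77 to 3.92 per array, where differences are compressed. Of 173, the only one past the threshold was MIR193A, and the median was 0.01. MIR193A read 6.06 and 6.99 with shPTK7-1 and shPTK7-2 in H1299 and 5.65 and 6.29 in H2009, against 5.43 to 5.84 in the 4 controls. All 4 PTK7 arrays stood above the controls of their line, those of shPTK7-2 the farther, and the difference was -0.78 ± 0.15 (limma adjusted p = 0.0344, but 0.0622 with cyclic loess normalization and 0.0675 from the 4 PTK7 arrays alone). Its mature arms are shown because they identify the one microRNA gene called. Where the probes lie relative to these arms was not examined, and the values are not taken as levels of the mature arms. The arms lie on chromosome 17 of GRCh38.p14, on the plus strand, at chr17:31560016-31560037 and chr17:31560050-31560071, per RefSeq, and capitals mark the seed, bases 2 to 8.
hsa-miR-193a-5p: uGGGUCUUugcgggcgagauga
hsa-miR-193a-3p: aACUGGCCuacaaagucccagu

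Of 16 genes of small RNA silencing, the machinery that processes the hairpins, AGO1 alone passed, at 0.84 ± 0.14 (limma adjusted p = 0.0217, and 0.0529 from the 4 PTK7 arrays alone). AGO1, an Argonaute protein, read 9.36 and 8.40 with shPTK7-1 and shPTK7-2 in H1299 and 8.48 and 7.76 in H2009, against 9.52 to 9.71 and 8.86 to 8.89 in the controls. It was below control in all 4 PTK7 arrays and passed against control with shPTK7-2 only, at -1.17. DICER1, the nuclease that cuts hairpins, was lower than control with both, at -0.85 and -0.80, and differed between them by -0.05.

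Metallothioneins, small proteins that bind zinc and copper and whose transcripts rise with metal load, were all on the opposite side. Of 13 read, a group examined after its values were seen, 8 were higher with shPTK7-2 and 0 with shPTK7-1 in limma. That is 61.5%, against 3.73% of all genes. All 13 lay below 0, between -1.63 and -0.42. The median was -0.76, and it was -0.76 in each line as well. Against control the median was -0.41 with shPTK7-1 and 0.29 with shPTK7-2. The genes are near copies of each other, several of them pseudogenes, so probes can read more than one and the members are not independent. The calls were 0 and 2 without the shPTK7-1 array of H1299 and of H2009, 1 and 6 without those of shPTK7-2, 4 without either shGFP array and 6 without either shLUC array, with the median between -0.80 and -0.75.

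MT1X read 9.25 and 11.35 with shPTK7-1 and shPTK7-2 in H1299 and 9.64 and 10.79 in H2009, against 10.44 to 10.73 in the controls. The shPTK7-1 arrays were below and the shPTK7-2 arrays above all 4 controls, and the difference was -1.63 ± 0.21 (limma adjusted p = 0.0116). MT2A, the brightest, read 11.91 and 12.67 in H1299 and 11.82 and 12.58 in H2009, against 12.20 to 12.34, a difference of -0.76 ± 0.12, with its second probe set at -0.84. MT1E differed by -1.35 ± 0.13 and was the member besides MT1X that passed against control, with shPTK7-1 only.

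Promoters are shown for these genes because the members moved together. Both run from 250 bases before to 50 after the start of the gene, on the plus strand of chromosome 16 in GRCh38.p14, per RefSeq: MT1X at chr16:56682220-56682519 and MT2A at chr16:56608334-56608633. Capitals mark matches, on either strand, to TGCACNC or TGCGCNC, the core of the metal response element bound by the zinc-sensing factor MTF1. The patterns differ in a fixed base and so cannot match at the same place on a strand. A match is a description of the letters only.
MT1X: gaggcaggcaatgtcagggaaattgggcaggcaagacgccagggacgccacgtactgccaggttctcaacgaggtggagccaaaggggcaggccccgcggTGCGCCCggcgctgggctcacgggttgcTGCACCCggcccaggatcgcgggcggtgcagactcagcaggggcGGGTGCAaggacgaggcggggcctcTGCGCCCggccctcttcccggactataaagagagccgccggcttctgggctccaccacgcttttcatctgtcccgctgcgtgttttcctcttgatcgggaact
MT2A: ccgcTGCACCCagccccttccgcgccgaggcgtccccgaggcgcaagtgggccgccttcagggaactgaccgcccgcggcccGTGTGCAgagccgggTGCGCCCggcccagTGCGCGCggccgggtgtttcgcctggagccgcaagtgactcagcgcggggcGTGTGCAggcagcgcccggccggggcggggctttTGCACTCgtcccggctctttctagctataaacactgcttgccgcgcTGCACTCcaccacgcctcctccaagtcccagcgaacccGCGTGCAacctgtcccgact

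MT1X held 4 matches and MT2A 8. Of the 13 metallothioneins 4 had an entry in the promoter table, and all 4 held at least 3 matches, MT1B with 3 and MT1H with 8. At least 1 match was found in 29.6% of 35116 promoters of this length and at least 3 in 2.3%.

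Actin regulators and the GPI anchor pathway had single large members. Of 29 measured actin regulators, 3 were higher with shPTK7-2 and 0 with shPTK7-1 in limma. That is 10.3%, against 3.73% of all genes and 7.59% of the brightest bin. CFL2, a cofilin that severs actin filaments, read 7.69 and 9.55 with shPTK7-1 and shPTK7-2 in H1299 and 7.45 and 9.27 in H2009, against 8.70 to 8.94 in the controls. It was below all controls with shPTK7-1 and above all with shPTK7-2, a difference of -1.84 ± 0.14. Its close relative CFL1 differed by -0.18 (limma adjusted p = 0.589). CSRP1, a LIM-domain protein of actin bundles, differed by -1.67 ± 0.21 and CNN2, a calponin, by -1.17 ± 0.13. PAK4, a kinase upstream of cofilin that was on none of the lists, differed by -1.55 ± 0.16.

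Among 27 genes for GPI anchors, 2 were higher with shPTK7-1 and 1 with shPTK7-2 in limma. This share was 11.1%, against 3.73% of all genes and 7.59% of the brightest bin. PIGK, the catalytic subunit of the transamidase that attaches the anchors, was higher with shPTK7-2, with a difference of -1.76 ± 0.20. PIGK read 6.46 and 7.44 with shPTK7-1 in H1299 and H2009 and 8.45 to 9.26 in the other 6 arrays. PIGW, an acyltransferase of anchor synthesis, was higher with shPTK7-1 by 1.10 ± 0.14, as was PGAP2, which remodels anchors, by 0.83 ± 0.17. PGAP2 passed narrowly (limma adjusted p = 0.0473) and not with quantile or cyclic loess normalization (limma adjusted p = 0.0548 and 0.0575). For both, only shPTK7-2 passed against control.

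Of 28 subunits of oxidative phosphorylation, 3 were higher with shPTK7-2 and 0 with shPTK7-1 in limma. That is 10.7%, against 3.73% of all genes and 7.59% of the brightest bin. Of the 28, 23 lay below 0, as did 10036 of all 18404 genes, and the median was -0.20. NDUFB10, a subunit of complex I, read 6.77 and 7.19 with shPTK7-1 and 8.37 to 8.86 in the other 6 arrays, a difference of -1.45 ± 0.19. ATP5MC1, the ring subunit of the ATP synthase, differed by -1.13 ± 0.16 and NDUFB3, of complex I, by -0.98 ± 0.19, which did not pass with cyclic loess normalization (limma adjusted p = 0.0504). Of 30 genes of hypoxia and glycolysis, PKM, the pyruvate kinase, and P4HA2, a collagen prolyl hydroxylase, were higher with shPTK7-2, with differences of -0.73 and -0.89.

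**Figure D4:**
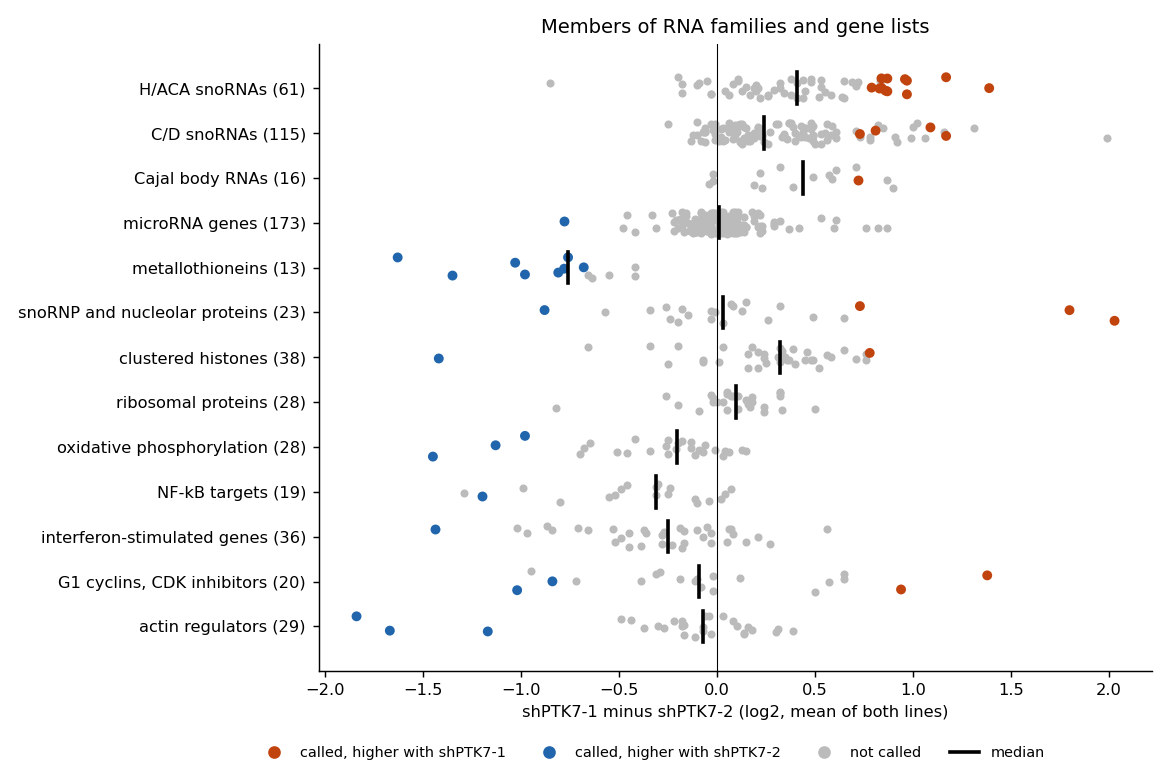
Each point is a member of a family or list (number measured in brackets) at its log2 difference shPTK7-1 minus shPTK7-2, averaged over both lines; coloured points passed at a limma adjusted p under 0.05 and the black bar is the median. H/ACA snoRNAs have a median of 0.41, metallothioneins lie wholly below 0 at a median of -0.76, and microRNA genes, mostly dim, have a median of 0.01.

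Of 38 clustered histones 1 passed in each direction: H1-5, a linker histone, at 0.78 ± 0.16 and H4C8, a core histone, at -1.42 ± 0.27. H4C8 did not pass with cyclic loess normalization (limma adjusted p = 0.0504), nor H1-5 from the 4 PTK7 arrays alone (limma adjusted p = 0.0691). The histone median was 0.32, at 0.19 in H1299 and 0.43 in H2009, with 31 members above 0. Of 36 interferon-stimulated genes 28 lay below 0, at a median of -0.25, which was -0.06 in H1299 and -0.32 in H2009, and only OAS3, a sensor of double-stranded RNA, passed. OAS3 read 5.18 and 7.32 with shPTK7-1 and shPTK7-2 in H1299 and 6.45 and 7.19 in H2009, where both controls, at 7.32 and 7.35, lay above both. Its difference was -1.44 ± 0.31 (limma adjusted p = 0.0485) and did not pass with quantile or cyclic loess normalization (limma adjusted p = 0.0551 and 0.0823).

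Of 19 NF-kB targets 16 lay below 0, at a median of -0.31, which was -0.09 in H1299 and -0.44 in H2009, and only TNFAIP3 passed. TNFAIP3, also called A20, restrains NF-kB signalling and read 8.03 and 8.36 with shPTK7-2 in H1299 and H2009, against 6.69 and 7.30 with shPTK7-1 and 6.48 to 7.79 in the controls, a difference of -1.20 ± 0.22. The shPTK7-2 arrays were the highest of each line. NFKBIA, the inhibitor of NF-kB, differed by -0.80 and did not pass (limma adjusted p = 0.0728).

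In the unfolded protein response, 3 of 28 genes passed (10.7%, against 3.73% of all genes and 7.59% of the brightest bin). DNAJB9, a cochaperone of the endoplasmic reticulum, was higher with shPTK7-1 by 1.38 ± 0.21. EDEM1 and SYVN1, which act in the removal of misfolded proteins, were higher with shPTK7-2, with differences of -1.0 and -0.77. SYVN1 had the same difference in each line, -0.77. SC5D, an enzyme late in cholesterol synthesis, was the one of 17 genes of that pathway to pass, at 0.97 in each line, with 9.25 and 9.38 with shPTK7-2 and 9.97 to 10.35 in the other arrays.

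Among the remaining lists, BAK1, a pore-forming executor of apoptosis, was higher with shPTK7-2, at -0.84, and above control with that hairpin, the one of 18 BCL2 family genes to pass. TIMP2, an inhibitor of metalloproteases, differed by -1.09 ± 0.23 and was the one of 23 in its list to pass (limma adjusted p = 0.0478), but not with quantile or cyclic loess normalization (limma adjusted p = 0.0582 and 0.0602). SRF, a transcription factor of immediate early and actin genes, was higher with shPTK7-1 by 0.74 ± 0.14, although 19 of the 23 members of the immediate early list lay below 0. No member passed in the lists of ERK output, EGF family ligands, antigen presentation, NRF2 targets, fatty acid synthesis, ribosomal proteins, integrins and laminins, epithelial identity and mesenchymal genes.

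Some genes had a difference between the hairpins that was itself unlike in the lines. The test of the H1299 minus H2009 difference called 28 genes (0.152%), with 2991 at an unadjusted p under 0.05 in limma. Of the 28, 17 had opposite signs in the lines. None of the 28 were among the 686, which are 3.73% of all genes. This was largely built in, since a difference unlike in the lines widens the error of the main fit. This test rests on the spread of the control arrays alone and called genes in simulated data without such a difference, and quantile normalization of the values left 0 calls (lowest limma adjusted p = 0.125, with 2561 genes at an unadjusted p under 0.05). The 28 are therefore given as values, the largest of them with the results marked for a closer look.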

How the data were processed

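The authors deposited a log2 value for each probe set and array. Per the submitters' processing notes they used RMA, run in R 2.14.0, a method that subtracts background, equalises the arrays and pools the probes of a set, and that compresses differences of dim genes. Of 32321 probe sets, 19158 had a single gene symbol in the array's annotation, 1388 had several and 11775 were not listed; 19128 matched the current RefSeq gene table by gene ID. Where a gene had more than 1 probe set (637 genes), the brightest stood for it, and 18404 genes were tested. The number of arrays limits the precision.

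The fit, made with limma 3.58.1 (R 4.3.3), took all 8 arrays and had a coefficient per hairpin and a term for cell line (3 residual and 4.63 prior degrees of freedom), with p-values adjusted by Benjamini-Hochberg across the whole table and called at 0.05. The cell line in the labels pairs the hairpins, so it is the block of this fit. Each PTK7 hairpin was also set against the mean of the control hairpins. The difference between lines came from a fit with a separate value per PTK7 array (1 residual degree of freedom). Both fits were tested on simulated data; that of the line difference called genes where none had been changed. Named genes are PTK7, the 15 largest differences per direction among genes past the threshold with one sign in both lines, the 2 members of each list with the lowest unadjusted p, and 3 per direction for the line difference; other members of lists and families, host genes and MPP1 were named after their values were seen. The comparison, the lists and the rules were chosen with earlier results of these data known. Alternatives were quantile normalization, median centring, cyclic loess normalization, leaving out the dimmest 40%, averaging probe sets, testing all probe sets singly, a trended prior, a robust prior, the 4 PTK7 arrays alone, no block, a term for the PTK7 hairpins in H2009, 2-fold in both lines with no test, and leaving out each array. The same alternatives were applied to the RNA families and metallothioneins after seeing the data. Sequences are RefSeq's. Plots used matplotlib 3.10.9 under Python 3.11.15.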

Additional observations from a re-analysis of the deposited data

Results flagged for a closer look

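In 6 genes the difference between the PTK7 hairpins was unlike in the lines, by limma's test of the H1299 minus H2009 difference (adjusted p under 0.05). They were the 3 genes per direction with the lowest unadjusted p. Since that test also called genes in simulated data where none had been changed, the values are given without further reading, and all of these calls were lost with quantile normalization, with cyclic loess normalization and without the dimmest 40% of genes.

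MMP13, a collagenase, differed between the lines by 2.43: shPTK7-1 minus shPTK7-2 was 1.13 in H1299 and -1.30 in H2009. C6orf15 differed by 2.24, from 1.51 in H1299 to -0.74 in H2009. GSTT1, a glutathione transferase, differed by 2.15, from 0.68 in H1299, where it read 4.16 to 4.84, to -1.47 in H2009, where it read 8.12 to 9.59. SNORD116-21, a C/D snoRNA of an imprinted cluster, differed by -3.28 and was low in all H1299 arrays, at 2.66 to 3.0. In H2009 it read 10.14 with shPTK7-1 and 6.52 with shPTK7-2, with the controls at 8.50 and 8.51. SERPINB9, an inhibitor of granzyme B, differed by -2.79, from -1.05 in H1299 to 1.74 in H2009. It was highest with shPTK7-2 in H1299 (8.10) and with shPTK7-1 in H2009 (8.22), with all 4 controls between 6.4 and 6.89. GLT8D2, a glycosyltransferase-like gene, differed by -2.62, from -1.20 to 1.42, with the same exchange of the higher hairpin.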

How the results depend on the processing

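All 686 had the same sign in both lines, which largely fixed their direction in advance, and none of them changed sign in any fit. Of 156 genes listed for naming 18 did in at least 1 fit, none of them called, among them PTK7 (0.25 without the shPTK7-1 array of H2009), MMP13 (0.89 without the shPTK7-2 array of H2009) and SERPINB9 (-0.64 without the shPTK7-1 array of H2009). Counts are of genes, by limma unless a fold rule is named. Without the block for cell line every count of differing genes, of genes past the threshold against control, of the classes and of list members was 0. Between the PTK7 hairpins 1017 genes then had an unadjusted p under 0.05, and 0.161 was the lowest adjusted p. The 4 PTK7 arrays alone gave 433 genes, 226 higher with shPTK7-1 and 207 higher with shPTK7-2. By 2-fold in both lines with no test, 167 differed (103 and 64) against 4 for the control hairpins, and 16 list members; shPTK7-1 had 53 lower and 7 higher than control and shPTK7-2 had 73 and 16, with 27 genes past with shPTK7-1 only, 43 with shPTK7-2 only and 97 with neither. The genes higher than control with shPTK7-1 were 30 with cyclic loess normalization, 78 without the dimmest 40% and 83 with a trended prior, which gave 290 lower; those higher with shPTK7-2 were 122 without the dimmest 40% and 114 with the trended prior. The line difference gave 0 with quantile normalization, 0 with cyclic loess (2523 at an unadjusted p under 0.05), 0 without the dimmest 40% (1768), 166 with the trended prior, 18 with the robust prior and 15 over every probe set; it could not be fitted with an array left out. With each array left out, the differing genes ran from 0 to 943, those higher with shPTK7-1 from 0 to 385 and with shPTK7-2 from 0 to 558, and the control hairpins gave 0 throughout. The classes ran from 0 to 161 (shPTK7-1 only), 0 to 381 (shPTK7-2 only) and 0 to 388 (neither). Genes lower than control ran from 0 to 269 with shPTK7-1 and 17 to 305 with shPTK7-2, those higher from 0 to 78 and 1 to 240, and list members from 0 to 61. The cause of these changes was not tested. From the 4 PTK7 arrays alone, calls lost beyond those in the report included SYVN1, PKM, BAK1, DDB2, TIMP2, SRF, NOLC1, PGAP2, MT2A and MT1G. Of the 30 largest differences, 29 or 30 still passed with quantile, median or loess scaling (TNFRSF9 was the one lost), and 0 without the shPTK7-1 array of H1299. Over all alternatives the median of the H/ACA snoRNAs stayed between 0.31 and 0.53 and that of the metallothioneins between -0.80 and -0.65. With a single array per hairpin and line, dim genes and differences within a line are the least certain.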
